A study of Rattus norvegicus with 60 samples.

Results

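Whole hippocampus of aged rats classed as impaired was compared with whole hippocampus of adult rats, on 15 of the 60 bead arrays of the series. The 15 were the arrays whose titles name whole hippocampus and whose age group was either adult, at 12 months (6 arrays), or 24-month impaired (9 arrays). All rats were F344BN, the F1 hybrid of the Fischer 344 and Brown Norway strains, and the labels give no treatment, no sex and no measure by which an aged rat was called impaired. A further 9 whole hippocampus arrays held 24-month intact rats, and CA1, CA3 and the dentate gyrus (DG), dissected separately, held 4 adult and 4 impaired arrays each. Nothing in the labels ties an array to an animal, so the p-values below measure the spread between these samples, which may in part be technical.

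The hippocampus holds excitatory pyramidal and granule neurons, inhibitory interneurons, astrocytes, oligodendrocytes, microglia and vessels, and RNA of the whole structure pools all of them. Microglia are the resident phagocytes of brain. They carry receptors such as Trem2, make complement proteins and, when activated, display peptides on major histocompatibility complex (MHC) class II molecules. Astrocytes answer injury and ageing by making more of the filament protein Gfap and of a set of stress and matrix proteins. In the rat the class II region is called RT1-B and RT1-D, and Cd74 is the invariant chain that escorts class II dimers to the endosome. Transcription of class II genes depends on a promoter module that ends in the Y box, an inverted CCAAT element.

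Values are log2 intensities after background correction and quantile normalization, and a difference of 1 on that scale is a doubling of corrected signal. A probe counts as detected on an array when its detection p-value, the chance of so bright a signal from background, was under 0.01. Of 22523 probes, 10020 were detected on 6 or more of the 15 arrays and were tested with limma, with the array slide as a term. A probe was called when its Benjamini-Hochberg adjusted p over all 10020 probes was under 0.05. All 15 arrays detected between 40.8 and 47.2% of the probes, and median raw signal ran from 54.45 to 69.74. Neuronal, astrocyte and oligodendrocyte markers (Snap25, Slc17a7, Gad1, Aqp4, Gja1, Mbp) were detected on all 15 arrays. Of the choroid plexus markers, Folr1 was detected on 0 of the 15 arrays, Kl and Clic6 on 1 each, Kcnj13 on 7 and Ttr on 12. Both groups lay on both slides, with 3 adult and 4 impaired arrays on slide 1 and 3 adult and 5 impaired arrays on slide 2. The 1st principal component, with 30.7% of the variance, separated the slides. Impaired replicate 9 stood apart on the 2nd (16.2%) and had the lowest median correlation with the other arrays (0.981).

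In the impaired rats 36 probes were called, which is 0.359% of those tested. Of these, 35 were higher than in adults (0.349%) and 1 was lower (0.00998%). The largest differences called were those of 4 genes of MHC class II presentation, and the smallest p-values were those of the predicted transcripts LOC499036 and LOC499029 and of the complement inhibitor Serping1. Of the gene lists, reactive astrocyte genes held 5 of the calls and class II genes 4. The median log2 difference over all probes was -0.004, and 47.9% of the probes lay above 0. At an unadjusted p under 0.05, 671 probes differed (6.7%), of which 397 were higher (3.96%) and 274 lower (2.73%). In 27 of the 35 probes called higher, every impaired array lay above every adult array. That held for 34 of all probes tested (0.339%). The mirror case, every impaired array below every adult array, held for 2 probes (0.02%), neither of them called. Without impaired replicate 9 the count was again 36, now 31 higher and 5 lower, with 31 of the 36 probes shared. Add2, Fxyd7, Klhdc8a and Niban3, named because they were the genes newly called lower, then stood at -0.38, -0.29, -0.35 and -0.56.

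**Figure D1:**
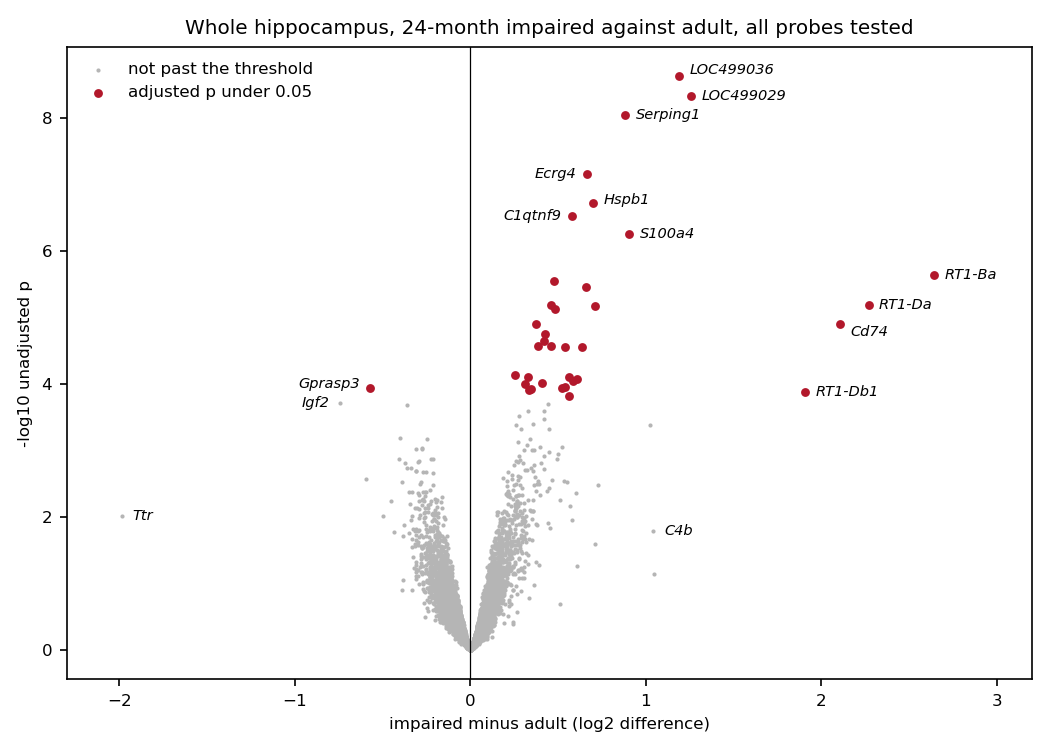
Each point is 1 of the 10020 probes tested, with the log2 difference of impaired minus adult whole hippocampus on the x axis and the -log10 unadjusted p on the y axis. The 36 probes with an adjusted p under 0.05 are red, and all but Gprasp3 lie right of 0; RT1-Ba, RT1-Da, Cd74 and RT1-Db1 lie farthest right.

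The class II genes had the largest differences of all probes called. RT1-Ba and RT1-Da encode the alpha chains of RT1-B and RT1-D, and RT1-Db1 encodes a beta chain of RT1-D. The 250 bases before the start of each called class II gene are shown because these 4 genes were called together. The sequences are from RefSeq on build GRCr8, 5′ to 3′ on the gene's own strand, at chr20:4576807-4577056 (plus) for RT1-Ba, chr20:4515165-4515414 (plus) for RT1-Da, chr20:4560163-4560412 (minus) for RT1-Db1 and chr18:56526956-56527205 (plus) for Cd74. Capitals mark ATTGG, the core of the Y box, or its reverse complement CCAAT.
RT1-Ba: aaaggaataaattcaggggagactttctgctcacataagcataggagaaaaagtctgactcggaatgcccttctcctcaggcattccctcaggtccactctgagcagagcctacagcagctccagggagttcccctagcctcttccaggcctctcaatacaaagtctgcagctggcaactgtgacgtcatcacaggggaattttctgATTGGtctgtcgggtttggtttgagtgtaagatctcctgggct
RT1-Da: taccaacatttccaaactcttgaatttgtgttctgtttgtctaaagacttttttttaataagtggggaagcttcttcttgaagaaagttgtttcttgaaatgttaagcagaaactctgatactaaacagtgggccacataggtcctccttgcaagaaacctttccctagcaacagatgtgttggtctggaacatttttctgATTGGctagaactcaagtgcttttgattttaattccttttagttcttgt
RT1-Db1: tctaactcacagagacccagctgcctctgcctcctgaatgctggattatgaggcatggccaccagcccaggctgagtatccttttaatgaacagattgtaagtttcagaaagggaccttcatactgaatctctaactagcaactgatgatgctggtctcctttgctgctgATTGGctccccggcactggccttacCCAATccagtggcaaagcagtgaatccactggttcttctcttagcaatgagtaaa
Cd74: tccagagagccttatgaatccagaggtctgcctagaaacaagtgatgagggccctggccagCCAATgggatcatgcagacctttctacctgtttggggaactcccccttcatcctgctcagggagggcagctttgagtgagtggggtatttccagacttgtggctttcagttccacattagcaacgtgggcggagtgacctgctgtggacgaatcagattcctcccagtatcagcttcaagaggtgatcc
ATTGG began 43 bases before the start of RT1-Ba, 49 before that of RT1-Da and 80 before that of RT1-Db1, which also held CCAAT 55 bases before its start. Cd74 held CCAAT 189 bases before its start. At least 1 of these words, on either strand, occurs in 34.0% of all 33469 promoter windows of this length, so a match describes the sequence and does not show a bound factor. It also did not set the called genes apart, since the windows of all 6 other class II genes with a promoter entry held a word too, among them RT1-DOa (ATTGG 107 bases before its start), which was tested and not called.

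RT1-Ba measured 6.02 to 7.24 in the adults (median 6.55) and 8.50 to 11.78 in the impaired rats (median 8.96). The difference was 2.64 ± 0.38 (SE), a 6.24-fold increase (adjusted p = 0.0029). RT1-Da measured 7.88 to 8.87 (median 8.48) against 9.97 to 13.09 (median 10.55). It rose by 2.27 ± 0.36, or 4.82-fold (adjusted p = 0.00519). Both genes were thus well apart, with the lowest impaired array over 1 unit above the highest adult array.

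Cd74 measured 4.96 to 5.88 in adults (median 5.30), where it was detected on 2 of 6 arrays, and 6.53 to 10.12 in impaired rats (median 7.26), where it was detected on 9 of 9. It rose by 2.11 ± 0.35 (adjusted p = 0.00792). RT1-Db1 measured 5.37 to 6.33 (median 5.69) with detection on 3 of 6 adult arrays, against 6.59 to 10.28 (median 7.49) with detection on 9 of 9 impaired arrays. It rose by 1.91 ± 0.39 (adjusted p = 0.0374). The groups did not overlap in any of the 4 genes. The adult levels of Cd74 and RT1-Db1 lay near background, and the size of their differences depended on the background correction. Without it they were 1.43 for Cd74 (adjusted p = 0.0141) and 1.33 for RT1-Db1 (adjusted p = 0.0651), beside 2.17 for RT1-Ba and 2.12 for RT1-Da. The RT1 genes are polymorphic between strains and related to each other, and cross-hybridization of their probes was not tested.

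Impaired replicate 5 was the highest array for all 4, at 11.78 for RT1-Ba against 9.33 for the next. Without it the differences were 2.33 for RT1-Ba, 1.96 for RT1-Da, 1.82 for Cd74 and 1.59 for RT1-Db1. The adjusted p-values then fell to 1.37e-06, 1.27e-07, 4.92e-06 and 6.04e-05. The call of RT1-Db1 was lost without any single array other than impaired replicates 4, 5 and 7 (highest adjusted p = 0.145, without adult replicate 6). A 5th class II gene, RT1-DOa, whose product restrains peptide loading, stood at -0.26 ± 0.09 and was not called (adjusted p = 0.399). Of 8 class II genes on the array 5 passed the detection filter, Cd74 and RT1-Db1 only through the impaired arrays. The class II list therefore had 4 of 5 tested members called higher, beside 0.349% of all probes, and a median of 2.108. That share depends on the filter. With detection required on all 15 arrays, 2 members were tested and both were called (median 2.456). Without background correction 3 of the 5 were called and the median was 1.431, and without a detection filter 3 were called. In RNA of whole tissue, more cells of a type and more RNA per cell cannot be told apart.

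**Figure D2:**
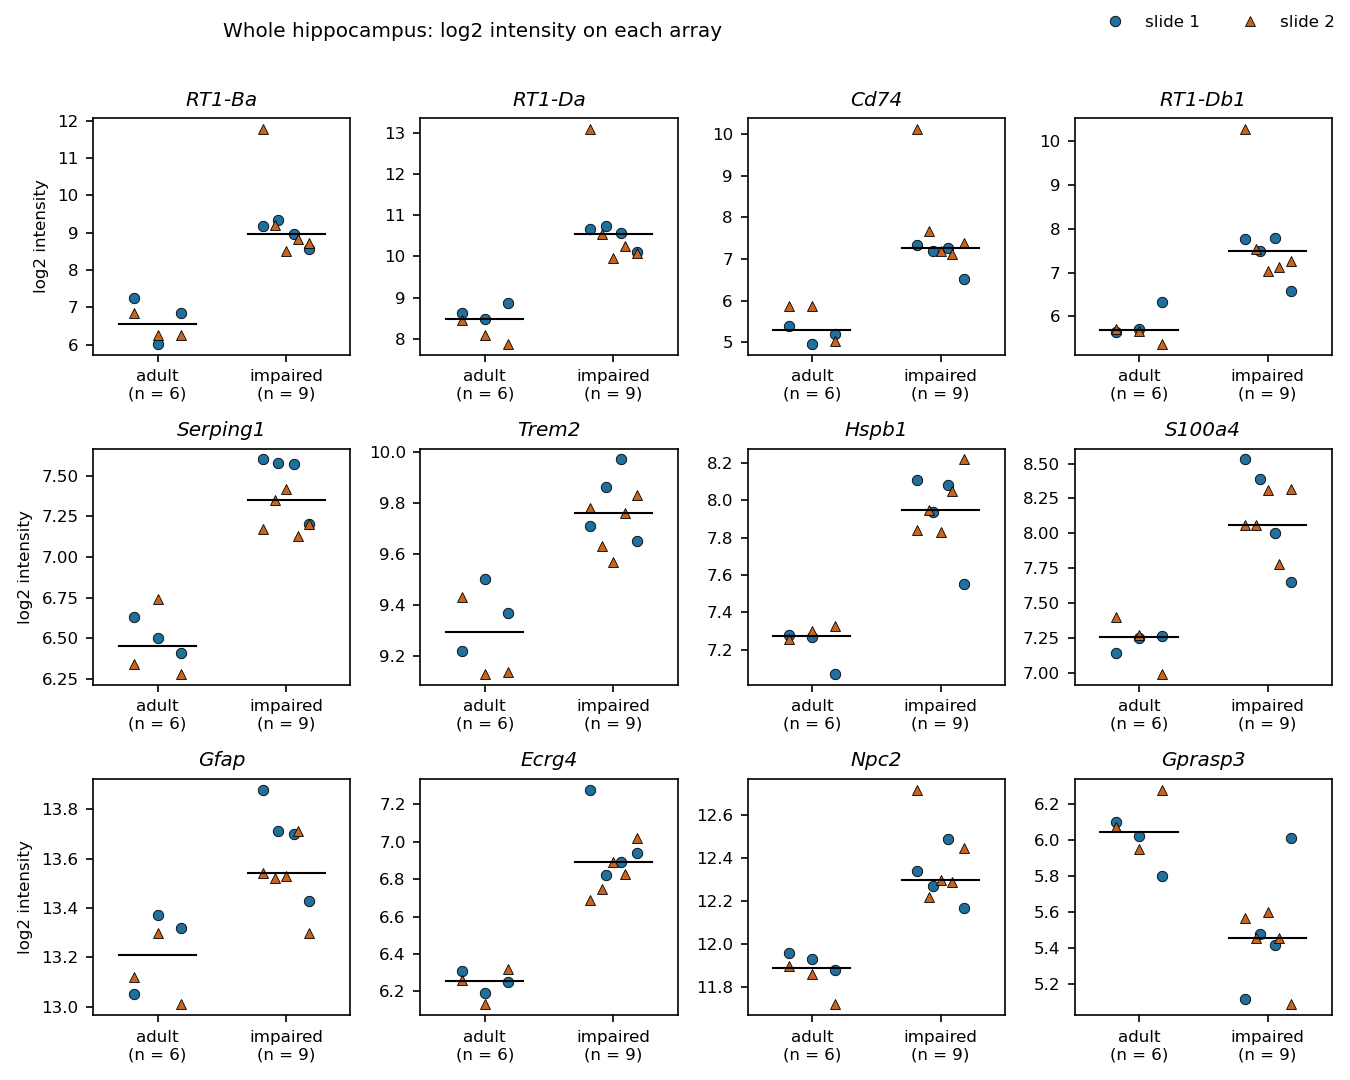
The log2 intensity of 12 called genes on each of the 6 adult and 9 impaired whole hippocampus arrays, with circles for slide 1, triangles for slide 2 and a line at each group's median; each panel has its own y axis. A single impaired array stands far above the others in the 4 class II panels, and the groups do not overlap except for Gfap and Gprasp3.

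Complement was represented among the calls by its inhibitor alone. Serping1, the C1 esterase inhibitor that restrains the classical pathway, measured 6.28 to 6.74 in adults (median 6.46) and 7.13 to 7.60 in impaired rats (median 7.35). It rose by 0.88 ± 0.09, or 1.84-fold (adjusted p = 3.07e-05), the smallest adjusted p of any probe with a gene symbol, and kept its call without any 1 array. Of 16 complement genes tested, 1 was called higher and 0 lower, and 12 lay above 0 (median 0.256). Over all probes 0.349% were called higher and 47.9% lay above 0. C4b (C4-2 on the array), a component of the classical pathway, stood at 1.04 ± 0.39 (adjusted p = 0.533). Even so, all 9 impaired arrays lay above all 6 adult arrays, at 7.29 to 10.75 against 6.61 to 7.21. C1qa, a subunit of C1q, stood at 0.58 ± 0.20 (adjusted p = 0.446).

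Impaired replicate 5 was the highest array of the complement list. Without it, C4b was 0.71 and called (adjusted p = 0.0179), and so was the C1q subunit C1qc, named after its values were seen, at 0.42 (adjusted p = 0.0308). C1qa then stood at 0.41 (adjusted p = 0.0666). The list then held 3 called members with a median of 0.224. On each array the mean over the 16 genes was 7.69 to 7.79 in adults and 7.89 to 8.69 in impaired rats, or at most 8.01 without impaired replicate 5.

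Trem2, a microglial lipid receptor, measured 9.13 to 9.50 in adults (median 9.29) and 9.57 to 9.97 in impaired rats (median 9.76). It rose by 0.46 ± 0.07 (adjusted p = 0.00519). Fcrl2, which the array annotation lists as macrophage scavenger receptor 2, measured 6.78 to 7.23 against 7.28 to 7.67 and rose by 0.43 ± 0.07 (adjusted p = 0.0106). Neither gene overlapped between the groups, and both kept their calls without any 1 array.

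Lgals3, the lectin galectin-3 of activated phagocytes, measured 7.41 to 7.72 in adults and 7.75 to 8.42 in impaired rats. It rose by 0.54 ± 0.10 (adjusted p = 0.0129), a call lost without adult replicate 6 alone (adjusted p = 0.0569). Pycard, the adaptor of the inflammasome, rose by 0.58 ± 0.12 (adjusted p = 0.0339). Its groups overlapped, with 8 of 9 impaired arrays above every adult.

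Pld4, an endolysosomal nuclease, rose by 0.56 ± 0.12 (adjusted p = 0.0415), and Plek, the leukocyte kinase substrate pleckstrin, by 0.54 ± 0.11 (adjusted p = 0.0357). LOC498279, annotated as similar to the gamma subunit of the high affinity IgE receptor, rose by 0.52 ± 0.11 (adjusted p = 0.0357). All 9 impaired arrays lay above all adults in these 3. Their calls, and that of Pycard, were lost in many fits that left out 1 array. Pycard kept its call without adult replicate 2 or impaired replicate 5, 6, 7 or 8, Pld4 without adult replicate 4 or impaired replicate 4 or 5, Plek without impaired replicate 4, 5, 7 or 9, and LOC498279 without impaired replicate 4, 5, 6 or 7, and in no other such fit. The highest adjusted p-values reached there were 0.0991, 0.168, 0.136 and 0.136.

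Among 20 tested genes of resting microglia 1 was called higher, Trem2, yet 20 of 20 lay above 0 (median 0.206), where 47.9% of all probes did. The mean over the list was 8.41 to 8.49 on adult arrays and 8.53 to 9.18 on impaired arrays, so the groups did not overlap. Of the defining markers, Aif1 stood at 0.33 ± 0.14 (adjusted p = 0.68) and P2ry12 at 0.19 ± 0.07 (adjusted p = 0.416). Cx3cr1 was detected on 5 of 15 arrays and Tmem119 on 4, and neither was tested. Of 14 genes of reactive microglia and phagocytes 1 was called higher, Lgals3, and 12 lay above 0 (median 0.202). Both lists had medians above 0, as the class II list had, and any part of microglial level in the class II difference was not tested. Impaired replicate 5 was the highest array here too, with Aif1 at 11.85 and a median of 10.73 over the 9 arrays. Without it the list medians were 0.16 and 0.135, and each list held 2 called members.

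No gene of the interferon and MHC class I lists was called with limma. All 21 interferon response genes tested lay above 0 (median 0.201), 8 of them at an unadjusted p under 0.05. Of all probes 47.9% lay above 0 and 3.96% were higher at that p. Array means over the interferon list overlapped, at 6.66 to 6.83 in adults and 6.80 to 7.51 in impaired rats. Impaired replicate 5 was the highest, and without it 19 of 21 genes lay above 0 (median 0.146). The antiviral chaperone Rtp4 stood at 0.39 ± 0.11 (adjusted p = 0.286) and Ifi44 at 0.28 ± 0.09 (adjusted p = 0.43). Of 21 class I and peptide loading genes 19 lay above 0 (median 0.132) and 4 had an unadjusted p under 0.05, all higher. Their array means overlapped as well, at 7.97 to 8.12 against 8.03 to 8.61, and without impaired replicate 5 the median was 0.099. Psmb8, an immunoproteasome subunit, stood at 0.55 ± 0.16 (adjusted p = 0.279), and B2m, the light chain of class I, at 0.19 ± 0.07 (adjusted p = 0.593). The class I heavy chain RT1-A1 stood at 0.54 ± 0.15 (adjusted p = 0.277), with all 9 impaired arrays above all adults, and was called at 0.41 without impaired replicate 5 (adjusted p = 0.00796).

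**Figure D3:**
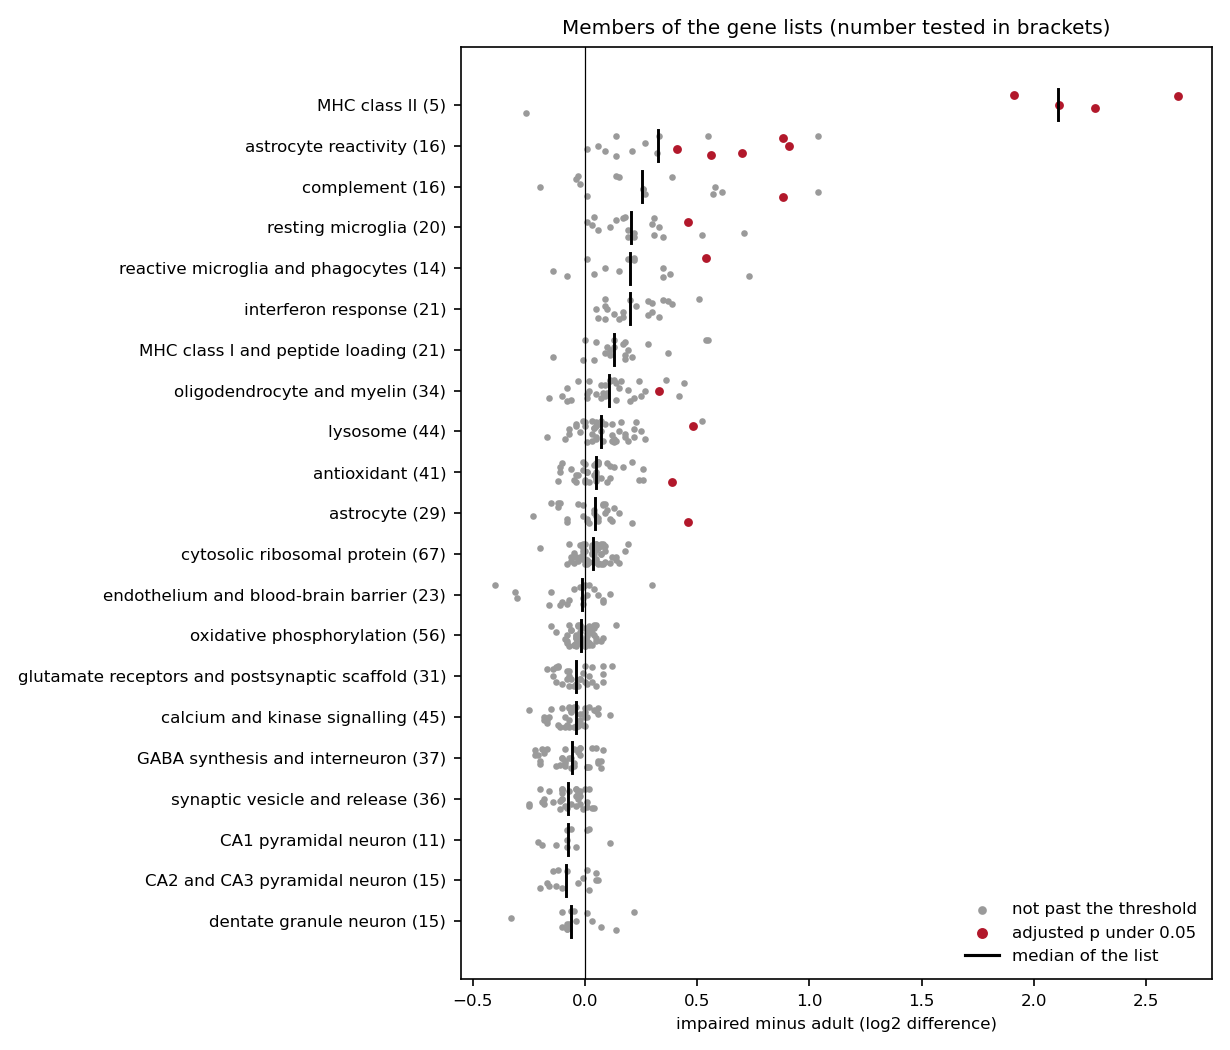
Each point is a gene of the named list, placed by its log2 difference of impaired minus adult, with called genes in red, the list median as a black bar and the number of genes tested in brackets. Medians run from 2.108 for MHC class II down through the glial and interferon lists to values just below 0 for the neuronal lists.

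Reactive astrocyte genes held the most calls of any list, 5 against 4 for class II genes, a rank that depended on the setting. Both lists tied in a fit of 24 arrays, without a slide term and with the deposited values (4 each). They also tied without a detection filter, without adult replicate 4 (3 each) and within slide 2 (0 each). Within slide 1 class II genes led, 3 against 1, and in the other settings counted by list reactive astrocyte genes led. Of 16 reactive astrocyte genes tested, 5 were called higher, beside 0.349% of all probes. All 16 lay above 0, beside 47.9% of all probes, and the median was 0.326. Serping1 and Psmb8, described above, belong to this list as well, so it shares members with the complement and class I lists. Impaired replicate 5 was its highest array, with a list mean of 8.13 against 7.86 for the next. Without that array 6 members were called and the median was 0.322. S100a4, a calcium-binding protein, measured 6.99 to 7.40 in adults (median 7.25) and 7.65 to 8.53 in impaired rats (median 8.06). It rose by 0.91 ± 0.12, or 1.87-fold (adjusted p = 0.000803). Hspb1, a small heat shock protein, measured 7.07 to 7.33 (median 7.28) against 7.55 to 8.22 (median 7.95). It rose by 0.70 ± 0.08 (adjusted p = 0.000386). Both genes were apart in every array and kept their calls without any 1 array.

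Gfap, the astrocyte filament protein, measured 13.01 to 13.37 (median 13.21) against 13.30 to 13.88 (median 13.54). It rose by 0.41 ± 0.08 (adjusted p = 0.0343), with 8 of 9 impaired arrays above every adult. S100a6, related to S100a4, rose by 0.56 ± 0.11 (adjusted p = 0.0317), with 5 of 9 impaired arrays above every adult. Gfap kept its call without adult replicate 2 or 5 or impaired replicate 4, 5 or 9, and S100a6 without adult replicate 1 or 6 or impaired replicate 4, 5 or 6, and in no other fit that left out 1 array (highest adjusted p 0.13 and 0.0991). Vim, a second filament gene, stood at 0.14 ± 0.10 (adjusted p = 0.874).

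Of 29 general astrocyte genes tested, 1 was called higher, Pla2g7, and the median was 0.044. Aqp4 stood at -0.12 ± 0.14, Gja1 at -0.01 ± 0.06 and Slc1a3 at 0.06 ± 0.07. Pla2g7, which hydrolyses platelet-activating factor, measured 8.76 to 8.88 in adults and 8.97 to 9.61 in impaired rats. It rose by 0.46 ± 0.08 (adjusted p = 0.0129) and kept its call without any 1 array, at 0.41 to 0.50.

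Npc2, the lysosomal cholesterol carrier, measured 11.72 to 11.96 in adults (median 11.89) and 12.17 to 12.72 in impaired rats (median 12.30). It rose by 0.48 ± 0.08 (adjusted p = 0.00537). It was the 1 called member among 44 lysosomal genes (median 0.07). Of these 35 lay above 0 and 13 were higher at an unadjusted p under 0.05, beside 47.9% and 3.96% of all probes. Mgst1, a membrane glutathione transferase, rose by 0.39 ± 0.07 (adjusted p = 0.0129), the 1 call among 41 antioxidant genes (median 0.049). Aadat, the kynurenine aminotransferase that makes kynurenic acid, measured 7.96 to 8.27 against 8.38 to 8.62 and rose by 0.38 ± 0.06 (adjusted p = 0.00792). These 3 genes did not overlap between groups and kept their calls without any 1 array.

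Plin2, a coat protein of lipid droplets, rose by 0.25 ± 0.05 (adjusted p = 0.0317), the smallest difference called. It was the 1 called member among 19 lipid transport genes, of which 9 lay above 0, and 0 of 24 genes of cholesterol synthesis and uptake were called (median 0.007). Slc16a3, the lactate exporter MCT4, rose by 0.35 ± 0.07 (adjusted p = 0.036) from near the detection limit, with detection on 2 of 6 adult and 6 of 9 impaired arrays. Plin2 kept its call without adult replicate 5 or impaired replicate 2, 4, 5, 6, 7 or 9, and Slc16a3 without adult replicate 6 or impaired replicate 7 or 9, and in no other such fit (highest adjusted p 0.0858 and 0.107).

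Oligodendrocyte genes gave 1 call among 34, Bcas1, a marker of myelin-forming cells. It measured 12.08 to 12.49 in adults and 12.42 to 12.82 in impaired rats. It rose by 0.33 ± 0.07 (adjusted p = 0.036) and kept that call without adult replicate 2 or 4 or impaired replicate 4, 5 or 9 and in no other fit that left out 1 array (highest adjusted p 0.147). Klk6, an oligodendrocyte protease, missed the threshold at 0.44 ± 0.09 (adjusted p = 0.0525), although all 9 impaired arrays lay above all adults. It was called without impaired replicate 4 (adjusted p = 0.0239). The myelin gene Mbp stood at 0.09 ± 0.07 (adjusted p = 0.877). The list had 28 of 34 members above 0, beside 47.9% of all probes, and a median of 0.106. The 9 precursor genes had a median of -0.017.

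The remaining calls were spread over secreted factors, receptors and regulators. Ecrg4, the precursor of the secreted peptide augurin, measured 6.13 to 6.32 in adults (median 6.25) and 6.69 to 7.28 in impaired rats (median 6.89). It rose by 0.66 ± 0.07 (adjusted p = 0.000173). Gipr, the receptor for the gut hormone GIP, measured 6.36 to 6.89 against 7.06 to 7.73 and rose by 0.66 ± 0.10 (adjusted p = 0.00347). C1qtnf9, a secreted relative of C1q, measured 6.14 to 6.47 against 6.57 to 7.11 and rose by 0.58 ± 0.07 (adjusted p = 0.000507). Pbx3, a homeodomain transcription factor, measured 10.80 to 10.97 against 11.09 to 11.68 and rose by 0.48 ± 0.07 (adjusted p = 0.00321). None of these 4 overlapped between groups or lost its call in a fit without 1 array.

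Bmp7, a growth factor of the TGF-beta family, was detected on 3 of 6 adult and 9 of 9 impaired arrays. It rose by 0.64 ± 0.11 (adjusted p = 0.0129), a call lost without adult replicate 3 (adjusted p = 0.0516). Aebp1, a matrix-associated carboxypeptidase-like protein, rose by 0.61 ± 0.12 (adjusted p = 0.0321) and Pbld1 by 0.42 ± 0.07 (adjusted p = 0.0125). These 3 overlapped between groups. Pmel, the fibril protein of pigment granules, rose by 0.33 ± 0.06 (adjusted p = 0.0317) and the membrane protein Emp3 by 0.31 ± 0.06 (adjusted p = 0.0349), both without overlap. Aebp1 kept its call without adult replicate 4 or impaired replicate 4, 5, 6 or 9, Pmel without adult replicate 2 or 4 or impaired replicate 4, 5, 7 or 9, and Emp3 without adult replicate 4 or impaired replicate 5, 8 or 9, and in no other such fit (highest adjusted p 0.0924, 0.0991 and 0.096). Pbld1 kept its call in every such fit.

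Predicted transcripts with no gene name had the smallest p-values of all. LOC499036, annotated as similar to kinesin family member 25, measured 6.12 to 6.66 in adults (median 6.36) and 7.06 to 7.90 in impaired rats (median 7.54). It rose by 1.19 ± 0.11, or 2.28-fold (adjusted p = 2.36e-05). LOC499029 measured 6.55 to 7.06 (median 6.72) against 7.64 to 8.52 (median 8.11) and rose by 1.26 ± 0.12, or 2.39-fold (adjusted p = 2.41e-05). LOC688464, detected on 2 of 6 adult and 9 of 9 impaired arrays, rose by 0.71 ± 0.11 (adjusted p = 0.00519). The array annotation places all 3 on chromosome 1, and all 3 were apart in every array and called in every fit without 1 array.

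The 1 gene called lower was Gprasp3, a member of the family of G protein-coupled receptor associated sorting proteins, which the array lists as Bhlhb9. It measured 5.80 to 6.28 in adults (median 6.05), with detection on 6 of 6 arrays, and 5.09 to 6.01 in impaired rats (median 5.46), with detection on 3 of 9. It fell by 0.57 ± 0.12 on the log2 scale (adjusted p = 0.0357), with 8 of 9 impaired arrays below every adult. The call held without adult replicate 3 or impaired replicate 4, 5, 7 or 9 and in no other fit that left out 1 array (highest adjusted p 0.145).

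Larger negative differences belonged to genes of choroid plexus and meninges and were not called. Ttr, the thyroxine carrier of choroid plexus, measured 5.59 to 12.43 in adults (median 7.24) and 5.18 to 6.68 in impaired rats (median 6.13). The difference of -1.99 ± 0.68 (adjusted p = 0.43) was -0.29 within slide 1 and -3.53 within slide 2. Adult replicate 6 held the value of 12.43, and without it the difference was -1.07. The same array was highest among the adults for the choroid plexus genes Kl (6.24) and Clic6 (5.57), each detected on 1 adult array and on 0 impaired arrays. Over the 9 tested choroid plexus genes, array means ran from 7.39 to 8.54 in adults and from 7.27 to 7.64 in impaired rats. Of these genes 2 lay above 0 (median -0.1), and Ecrg4 was the 1 called, higher.

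Igf2, a growth factor made by choroid plexus and meninges, measured 9.21 to 10.46 in adults (median 9.24) and 8.46 to 9.06 in impaired rats (median 8.73), without overlap. The difference was -0.74 ± 0.16 (adjusted p = 0.0525), with adult replicate 6 again the highest array. Without that array Igf2 stood at -0.53 and was called (adjusted p = 0.0124), and it was also called without impaired replicate 2 (-0.80, adjusted p = 0.0403). Whether the amount of attached choroid plexus takes part in the Igf2 difference was not tested. Among 23 genes of endothelium and the blood-brain barrier 0 were called, and Egfl7, a factor secreted by endothelium, stood at -0.40 ± 0.10 (adjusted p = 0.133), with all 9 impaired arrays below all adults. Hbb, a marker of blood, stood at 0.00 ± 0.13.

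Neuronal lists held 0 calls with limma. Of 36 genes of synaptic vesicles and release 5 lay above 0 (median -0.075), and 3 were lower at an unadjusted p under 0.05. Of 37 genes of GABA synthesis and interneurons 10 lay above 0 (median -0.057), of 45 genes of calcium and kinase signalling 10 (median -0.04), and of 31 glutamate receptor and scaffold genes 11 (median -0.038). The list medians for CA1, CA2 and CA3, and dentate granule neurons were -0.077, -0.084 and -0.061. The unadjusted counts over these 7 lists were 0 higher and, in the order given, 3, 2, 1, 0, 1, 1 and 1 lower, against 3.96% higher and 2.73% lower over all probes. Array means over the calcium and kinase list were 10.01 to 10.06 in adults and 9.89 to 10.03 in impaired rats. There 8 of 9 impaired arrays lay below every adult array. So did 6 for synaptic vesicles and for CA1, 4 for GABA and for dentate granule neurons, 3 for glutamate, and 2 for CA2 and CA3. Means above every adult array occurred on 2 impaired arrays for dentate granule neurons and on 1 each for CA1 and glutamate.

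The single neuronal genes named here were not called. Snap25, a fusion protein of synaptic vesicles, measured 13.67 to 13.99 in adults and 13.55 to 13.87 in impaired rats, a difference of -0.11 ± 0.06 (adjusted p = 0.787). Nsf, the ATPase that takes fusion complexes apart, stood at -0.18 ± 0.06 (adjusted p = 0.421), and Tubb3, a neuronal tubulin, at -0.23 ± 0.07 (adjusted p = 0.326). Camk2a stood at -0.06 ± 0.10, Grin2b at -0.14 ± 0.08, Gad1 at -0.06 ± 0.05, Sst at -0.10 ± 0.08 and Calb1 at -0.08 ± 0.06. The activity-induced genes Fos (0.22 ± 0.21), Egr1 (0.18 ± 0.10) and Arc (0.11 ± 0.14) and the neurotrophin Bdnf (-0.07 ± 0.09) were not called either. Of 56 genes of oxidative phosphorylation and 67 cytosolic ribosomal protein genes 0 were called, with medians of -0.017 and 0.035.

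Both slides gave the same direction for all 36 called probes. RT1-Ba differed by 2.30 within slide 1 and 2.95 within slide 2, Serping1 by 0.97 and 0.80, and Gprasp3 by -0.47 and -0.66. Outside the class II genes Bmp7 differed most between slides, at 0.91 and 0.39. Fitted alone, slide 1 gave 6 calls (RT1-Ba, RT1-Da, Cd74, LOC499029, Serping1 and Aebp1) and slide 2 gave 1 (LOC499036). Since the 36 were chosen on the fit over both slides, these directions describe the calls and are no separate test.

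**Figure D4:**
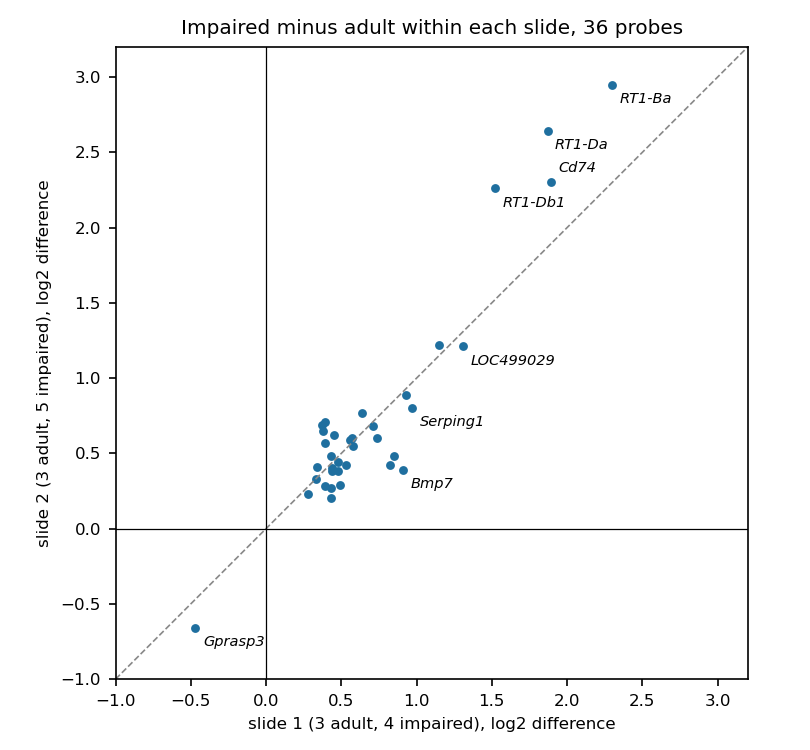
For each of the 36 called probes, the log2 difference of impaired minus adult within slide 1 (3 adult and 4 impaired arrays, x axis) is set against that within slide 2 (3 adult and 5 impaired arrays, y axis), with the dashed line marking equal values. All points lie in the upper right quadrant except Gprasp3, which is below 0 on both slides, and the 4 class II genes lie above the line.

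Whether the differences from adults belonged to impaired rats in particular was tested against the 9 arrays of intact rats of the same age, on the same slides. In a fit of all 24 whole hippocampus arrays, 0 of 10370 probes were called between impaired and intact (smallest adjusted p = 0.263), and 600 (5.79%) had an unadjusted p under 0.05. RT1-Ba measured 8.66 to 9.44 in intact rats (median 9.02), and impaired minus intact was 0.25 with a 95% interval of -0.36 to 0.87. The impaired median of RT1-Ba, 8.96, lay below the intact median. Impaired replicate 5, at 11.78 (next 9.33), raised the impaired mean, and this contrast was not refitted without that array. For Cd74, at 6.94 to 8.06 in intact rats, the difference was -0.03 (-0.61 to 0.56). Both intervals included 0.

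Serping1 measured 6.73 to 7.53 in intact rats and differed by 0.15 (-0.06 to 0.37). For Gfap, at 13.41 to 13.92 in intact rats, the difference was -0.08 (-0.24 to 0.08), and for Gprasp3, at 5.06 to 5.80, it was -0.02 (-0.25 to 0.21). Both sets of aged arrays were compared with the same 6 adult arrays. Intact minus adult was 2.40 for RT1-Ba, 2.14 for Cd74, 0.72 for Serping1, 0.49 for Gfap and -0.55 for Gprasp3. Of the 36 probes, 5 had an unadjusted p under 0.05 between impaired and intact, all higher in impaired rats. These were Pycard (0.27, interval 0.06 to 0.48), Fcrl2 (0.23, 0.07 to 0.39), LOC499036 (0.22, 0.00 to 0.43), Slc16a3 (0.20, 0.04 to 0.36) and Trem2 (0.17, 0.01 to 0.33). Their adjusted p was 0.639 in each case. The 36 were chosen on these same impaired arrays, 35 of them as higher, so the shared direction is no separate test. In the 24-array limma fit 21 of the 36 were also called in intact minus adult, where 25 of 10020 probes were (0.25%).

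The dissected subregions gave a separate set of arrays for the same contrast. On each subregion slide the impaired arrays held positions A to D and the adult arrays I to L, per the titles. Group and position on the slide therefore cannot be told apart there, whereas the positions of the whole hippocampus groups were mixed. All 36 probes had the same direction in CA3, 35 in DG and 29 in CA1. Over all 10020 probes 50.6% lay above 0 in CA3, 51.9% in DG and 57% in CA1. Whether the subregion arrays came from the same animals is not stated in the labels. In fits of each subregion, 6 of 10020 probes were called in CA3 (0.0599%), 2 in DG (0.02%) and 0 in CA1. At an unadjusted p under 0.05 the limma fits gave 7.73% of the probes in CA3, 0.978% in DG and 0.659% in CA1. The shares in DG and CA1 lay below what a limit of 0.05 gives with no difference at all. The low counts of calls there therefore do not show that differences were absent. All 6 of CA3 (RT1-Db1, Cd74, Gipr, Bmp7, S100a6 and Gfap) and both of DG (LOC499029 and LOC688464) were also among the 36.

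Class II differences were 2.58 ± 0.42 in CA1, 1.61 ± 0.26 in CA3 and 0.71 ± 0.20 in DG for RT1-Ba, beside 2.64 ± 0.38 in whole hippocampus. Cd74 gave 2.21 ± 0.29, 1.50 ± 0.21 and 0.77 ± 0.15, and Gfap 0.78 ± 0.34, 0.62 ± 0.09 and 0.17 ± 0.16. The unnamed transcripts of chromosome 1 had the opposite order between CA3 and DG. LOC499029 differed by 0.35 ± 0.21 in CA3 and 1.80 ± 0.17 in DG, LOC499036 by 0.38 ± 0.18 and 1.70 ± 0.25, and LOC688464 by 0.30 ± 0.10 and 1.48 ± 0.14. These differences among subregions are given as values and were not tested against each other.

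The difference in whole hippocampus was tested against the mean of the 3 subregions in a single fit. Of 10020 probes 0 were called (smallest adjusted p = 0.999), and 111 (1.11%) had an unadjusted p under 0.05. That share, too, lay below what a limit of 0.05 gives with no difference at all. Of the 36, RT1-Da (0.99 ± 0.37, unadjusted p = 0.0114), RT1-Ba (1.01 ± 0.43, unadjusted p = 0.0235), RT1-Db1 (0.90 ± 0.40, unadjusted p = 0.0301) and Gprasp3 (-0.47 ± 0.20, unadjusted p = 0.0232) were among those in the limma fit. None had an adjusted p below 0.999. The 36 were chosen on the same whole hippocampus arrays that enter this contrast, so their values here are no separate test. The count of 0 does not show that the differences were equal.

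**Figure D5:**
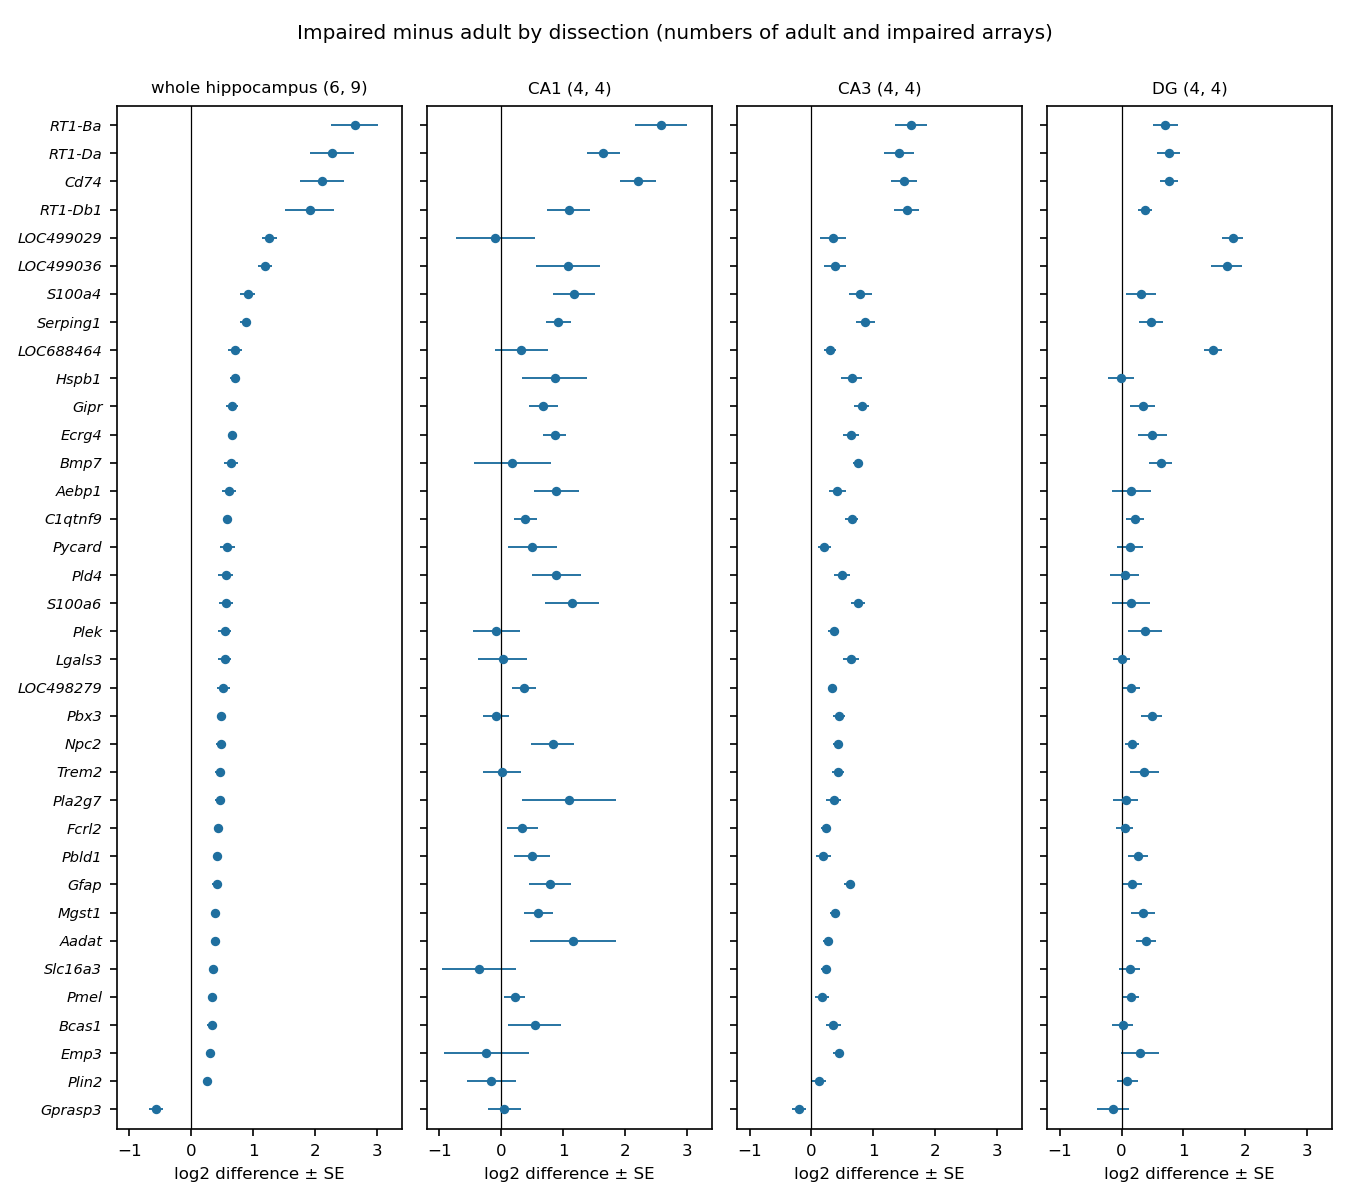
Log2 difference of impaired minus adult for each of the 36 called probes (y axis) in whole hippocampus and in CA1, CA3 and DG, as points with bars for the SE and the numbers of adult and impaired arrays in brackets. The class II genes are higher in all 4 dissections, and the LOC499029, LOC499036 and LOC688464 differences are larger in DG than in CA3.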

How the data were processed

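Total RNA of rat hippocampus was made into biotinylated cRNA, per the labels, and hybridized to Illumina bead arrays. Per the file headers, the authors' deposited table lists 22523 probes on 60 arrays, with the average bead intensity and a p-value of detection side by side. A second deposited table of processed intensity was a linear function of that signal on each array (largest residual 0.021). The settings behind it are not given in the sources used here. Gene symbols of the file were updated through RefSeq, where 10164 probes had a current symbol, 5050 matched a synonym, 1666 a gene number and 5526 kept the given name.

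Signals were processed with neqc of limma 3.58.1 (R 4.3.3), which inferred the negative controls from detection, with an offset of 16, quantile normalization over all 60 arrays and log2. The probes kept were fitted with lmFit and eBayes with slide as a term, two-sided, after a check on simulated data with known changes. The named genes were the 15 highest and 15 lowest called, the 10 of smallest p, up to 4 called members of each of 42 lists (otherwise up to 2 of smallest p) and a fixed set, 1 probe per gene (highest mean). Those not printed are in the counts of their lists. The comparison, its members and the lists were chosen with earlier results of these data known, and lists were not tested as sets. Python 3.11.15 with numpy 2.4.6 and pandas 2.3.3 made the tables, and matplotlib 3.10.9 the figures. The number of arrays limits the precision. Alternatives covered background correction, the deposited values, filters, slide, variance, replicate block and leaving out each array.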

Additional observations from a re-analysis of the deposited data

Results flagged for a closer look

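Several called genes had 1 array far from the rest of its group, by a gap test that chance passes in about 1 in 20 groups. Impaired replicate 5 was the high array for RT1-Ba (11.78, next 9.33), RT1-Da (13.09, next 10.74), Cd74 (10.12, next 7.67), RT1-Db1 (10.28, next 7.78) and Pld4 (7.40, next 6.88). Without it 43 probes were called, 35 of them among the 36, so the count did not rest on that array. Adult replicate 3 was the high adult array for RT1-Db1 (6.33, next 5.71) and the low adult array for Hspb1 (7.07, next 7.26). No explanation of these arrays was tested.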

How the results depend on the processing

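No call changed direction under any alternative run. Leaving out 1 array gave 23 to 43 calls, and 20 of the 36 probes kept their call in all 15 such fits. The other array-wide settings gave 25 (no detection filter) to 44 (array weights). The deposited processed values kept 28 of the 36 calls (lost were Aebp1, S100a6, Pld4, Plek, LOC498279, Pmel, Plin2 and Gprasp3), no background correction 32 (lost were RT1-Db1, Slc16a3, Emp3 and Plin2), and a fit of all 24 whole hippocampus arrays 24. Within slide 1 alone there were 6 calls and within slide 2 alone 1, where fewer arrays were fitted. Same-numbered arrays correlated at -0.116 to -0.019 after group and slide effects were removed. No pairing by the labels' replicate numbers was seen, though such correlations cannot exclude one. With the replicate block over numbers 1 to 6 there were 15 calls, 12 of them shared with the 36, from fewer arrays. The comparisons with intact rats and with the subregions gave 0 calls under every alternative run. Precision is limited by signal over background for the probes detected on few adult arrays (Cd74, LOC688464, Slc16a3, RT1-Db1, Bmp7).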

Other observations

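Genes that a single impaired array kept from the calls included others of phagocytes. Without impaired replicate 5, the Fc receptor gene Fcgr3a stood at 0.46 (adjusted p = 0.0125) where it had 0.71 (adjusted p = 0.62) with all 15 arrays, and Ncf1, a subunit of the phagocyte oxidase, at 0.56 (adjusted p = 0.0179) where it had 0.73 (adjusted p = 0.288). Smg6, Cep89 and the unnamed LOC497841 also passed then, at 0.34, 0.36 and 0.84. These genes were named after their values were seen.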
